A study of Saccharomyces cerevisiae with 24 samples.

Results

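The 10 genes described here encode very large proteins of budding yeast (Saccharomyces cerevisiae), each of more than 1500 codons: MDN1, DYN1, TRA1, IRA1, TOR1, FAS1, FAS2, ACC1, GLT1 and URA2. Their identifiers in the files are YLR106C, YKR054C, YHR099W, YBR140C, YJR066W, YKL182W, YPL231W, YNR016C, YDL171C and YJL130C, in that order. They were taken by name and not by a measured value, although earlier results of these data were known when they were chosen. They are 10 of the 6663 transcripts in the RPM files, 10 of the 6696 genes in the count files, and 10 of the 167 transcripts of more than 1500 codons. All 10 passed the filters on low values in both kinds of file. Their footprints were read in 24 ribosome profiling libraries, in 12 groups of 2 replicates.

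Per the labels, every strain was MATa ade2 his3 leu2 trp1 ura3 can1 and carried HEL2-FTP::natNT2, a tagged Hel2, and cells grew in YPD at 30 °C. The first strain, HEL2-FTP, had no further change. Strains labelled SRP72p and GIT1p were also srp72::HISMX6, with SRP72, which encodes a subunit of the signal recognition particle, supplied as SRP72-V5 on plasmid pRS415 under the SRP72 or the GIT1 promoter. Each lysate gave a cytosolic and a membrane fraction, the latter solubilised with Triton X-100, and from both came input libraries of total RNase I footprints and libraries of footprints recovered by immunoprecipitation (IP) of Hel2. Nothing in the labels says whether replicates came from separate cultures, so p-values measure only the spread between these samples.

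Hel2 is a ubiquitin ligase that recognises ribosomes that have collided on a messenger RNA and marks them for ribosome-associated quality control. A very long coding sequence takes long to translate and carries many ribosomes at a time, and many giant proteins are multi-domain enzymes or scaffolds. Midasin, dynein, the TOR-family proteins and fatty acid synthase are examples of giants that work in larger assemblies.

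Among the largest, MDN1 encodes midasin, an AAA ATPase that strips assembly factors from precursors of the large ribosomal subunit, and has 4910 codons (chromosome XII, 349006 to 363738, reverse strand). DYN1, the heavy chain of cytoplasmic dynein, has 4092 codons (chromosome XI, 535647 to 547925, reverse strand). TRA1, a kinase-like subunit shared by the SAGA and NuA4 histone acetyltransferases, has 3744 codons (chromosome VIII, 302761 to 313995, forward strand). The signalling members are IRA1, which stimulates GTP hydrolysis by RAS, with 3092 codons (chromosome II, 517350 to 526628, reverse strand), and TOR1, the kinase of TOR complex 1, with 2470 codons (chromosome X, 559416 to 566828, forward strand).

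The other members are metabolic enzymes. ACC1, acetyl-CoA carboxylase, has 2233 codons (chromosome XIV, 654673 to 661374, reverse strand). FAS1 and FAS2, the beta and alpha subunits of fatty acid synthase, have 2051 codons (chromosome XI, 100671 to 106826, forward strand) and 1887 codons (chromosome XVI, 108652 to 114315, forward strand). URA2, which carries out the first steps of pyrimidine synthesis, has 2214 codons (chromosome X, 165723 to 172367, reverse strand), and GLT1, glutamate synthase, has 2145 codons (chromosome IV, 149203 to 155640, reverse strand). Coordinates are those of the RefSeq gene table of assembly R64, in which no other gene overlaps any of the 10.

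Each HEL2-FTP library summed to 999421 to 999937 RPM, and the 16 libraries of the other strains held 2015928 to 13093023 counts. Replicate counts differed by more than sampling noise in all 8 groups with counts, and the chi-square over its degrees of freedom ran from 2.13 in the SRP72p membrane IPs to 78.3 in the inputs of that fraction. The check of the labels left them in doubt, since LEU2, HIS3 and TRP1 differed between strains that share these genotypes by label. For SRP72 the labels do not say which promoter gives more. It gave 326 to 382 CPM in inputs labelled GIT1p and 120 to 145 CPM in those labelled SRP72p. LEU2, the marker of pRS415, which both strains carry by label, gave 1671 to 2030 CPM in the former and 33.9 to 127 CPM in the latter, so directions between these strains are stated by label only. HIS3 gave 16.6 to 28.7 CPM in inputs labelled GIT1p and 391 to 572 CPM in those labelled SRP72p. TRP1 gave 1.56 to 6.78 CPM and 66.8 to 83.6 CPM in the same order, although both strains are his3 and trp1 by label. Summed levels of 12 secretory markers were 1162 to 3002 in cytosolic inputs and 12408 to 15657 in membrane inputs, and those of 10 cytosolic markers were 152357 to 161123 and 120004 to 147992, so the membrane fractions kept much cytosolic signal.

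The input libraries split the 10 genes into an abundant and a scarce class. Per kb of coding sequence, the HEL2-FTP cytosolic inputs gave means of 373 RPM for FAS2, 363 RPM for FAS1, 166 RPM for ACC1, 108 RPM for URA2 and 98.6 RPM for GLT1, against 10.5 RPM for TRA1, 9.71 RPM for MDN1, 5.37 RPM for TOR1, 4.65 RPM for IRA1 and 2.02 RPM for DYN1. Thus the 5 metabolic enzymes lay above the 5 others in these libraries. Together the 10 genes took 0.729% to 0.741% of the RPM over all coding sequences in these inputs.

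**Figure D1:**
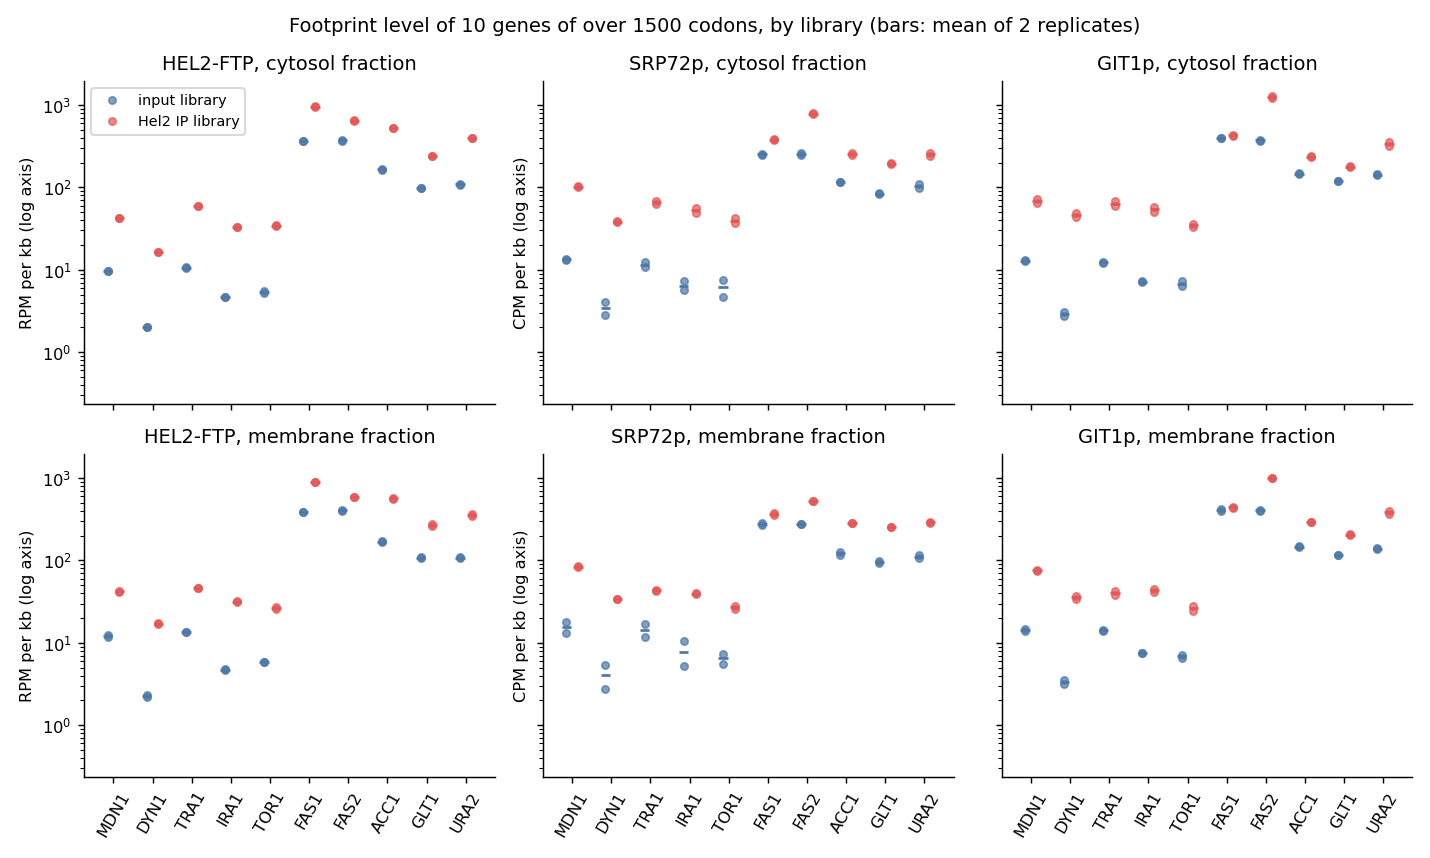
Footprint level per kb of coding sequence (log axis, RPM in HEL2-FTP, CPM in the other strains) for each gene in each of the 24 libraries, with dots for libraries and short bars for group means of 2 replicates. The 5 enzymes on the right of each panel lie above the 5 genes on the left in the inputs, and IP dots lie above input dots for every gene, by the least for FAS1 in GIT1p.

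The first comparison asked how Hel2-bound footprints of these genes compare with all footprints. In every strain and fraction all 10 genes were higher in the IP than in the input (adjusted p below 0.05). Their joint share of the RPM over all coding sequences was 1.94% and 1.96% in the HEL2-FTP cytosolic IPs. In the membrane fraction it went from 0.783% and 0.784% to 1.87% and 1.90%. Of all genes tested, 53.7% were higher in the HEL2-FTP cytosolic IP and 45.4% in the membrane IP, and of all genes 89.3% and 88.4% were called in either direction. In SRP72p 37.7% were higher and 68.7% called in the cytosol, and 27.1% and 60.1% in the membrane fraction. In GIT1p these shares were 36.3% and 69.5%, and 25.2% and 62.4%. In the cytosol the median log2 IP/input ratio of the 10 genes was 1.99 in HEL2-FTP, 2.14 in SRP72p and 2.42 in GIT1p, where all genes tested had medians of 0.34, 0.11 and −0.04. In the membrane fraction it was 1.76, 1.67 and 1.93, against 0.02, −0.15 and −0.24.

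Both IP libraries lay above both inputs for all 10 genes in all 6 comparisons, as they did for 56.1% of genes in the HEL2-FTP cytosol, 48.2% at its membrane, 43.0% and 30.6% in SRP72p, and 34.7% and 22.4% in GIT1p. The 10 of 10 held without each library in turn. Centring the HEL2-FTP libraries on their median gene moved the median of all genes from 0.34 to −0.12 in the cytosol and from 0.02 to −0.27 at the membrane, and all 10 genes remained called. The exception is FAS1 in GIT1p, whose calls were lost when counts were scaled by library size alone. Ratios are relative to the rest of each library, since RPM and CPM are scaled to the library total.

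Among the scaffold and motor proteins, DYN1 had the highest IP/input ratio of the 10 in each of the 6 comparisons. Its levels were 24.9 and 24.7 RPM in the HEL2-FTP cytosolic inputs and 204 and 201 RPM in the IPs, a log2 ratio of 3.01 (SE 0.05, adjusted p 3.25e-13). In the membrane fraction it rose from 27.2 and 28.5 RPM to 207 and 212 RPM (log2 2.89, SE 0.05, adjusted p 4.94e-13). The replicates lay close together, and inputs and IPs were far apart. In SRP72p its cytosolic inputs held 49.3 and 34.9 CPM and its IPs 467 and 477 CPM (log2 3.55, SE 0.24), and its membrane inputs, 65.7 and 33.9 CPM, lay far apart between replicates. The SRP72p membrane ratio was 3.18 (SE 0.23), and those of GIT1p were 4.35 (SE 0.24) in the cytosol and 3.84 (SE 0.23) at the membrane.

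TRA1 rose from 120 and 117 RPM to 671 and 662 RPM in the HEL2-FTP cytosol (log2 2.49, SE 0.04, adjusted p 3.65e-13) and from 154 and 151 RPM to 525 and 527 RPM at the membrane (log2 1.79, SE 0.04, adjusted p 3.49e-12). Its membrane inputs were above its cytosolic inputs, while its membrane IPs were below its cytosolic IPs. The ratios were 2.58 and 1.75 in SRP72p and 2.74 and 1.95 in GIT1p, cytosol first. MDN1 rose from 144 and 142 RPM to 623 and 621 RPM in the HEL2-FTP cytosol (log2 2.12, SE 0.04, adjusted p 8.63e-13) and from 182 and 175 RPM to 629 and 618 RPM at the membrane, 3.49 times the input mean (adjusted p 3.47e-12). Its log2 ratios were 2.99 and 2.59 in SRP72p and 2.76 and 2.84 in GIT1p.

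The signalling members had ratios between those of DYN1 and TRA1 in the HEL2-FTP cytosol. IRA1 rose from 43.2 and 43.0 RPM to 307 RPM in both IPs of the HEL2-FTP cytosol (log2 2.82, SE 0.05, adjusted p 2.82e-13) and from 44.3 and 43.5 RPM to 288 and 296 RPM at the membrane (log2 2.72, SE 0.05). TOR1 rose from 41.3 and 38.3 RPM to 250 and 256 RPM in the cytosol (log2 2.65, SE 0.05, adjusted p 7.93e-13) and from 42.9 and 43.1 RPM to 191 and 199 RPM at the membrane (log2 2.17, SE 0.05). Neither gene's inputs and IPs overlapped. The ratios of IRA1 were 3.10 and 2.46 in SRP72p and 3.30 and 2.96 in GIT1p, and those of TOR1 were 2.75 and 2.20 and then 2.72 and 2.38, cytosol first in each.

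The metabolic enzymes, at much higher input levels, had lower ratios. URA2 rose from 729 and 712 RPM to 2613 and 2624 RPM in the HEL2-FTP cytosol (log2 1.86, SE 0.05, adjusted p 2.92e-12), ACC1 from 1125 and 1099 RPM to 3527 and 3505 RPM (log2 1.66, SE 0.05, adjusted p 7.05e-12), and GLT1 from 641 and 628 RPM to 1563 and 1541 RPM (log2 1.29, SE 0.04, adjusted p 4.48e-11). Their membrane ratios were 1.72, 1.74 and 1.32. In SRP72p the cytosolic and membrane ratios were 1.32 and 1.53 for URA2, 1.17 and 1.38 for ACC1, and 1.25 and 1.58 for GLT1. In GIT1p they were 1.60 and 1.90, 1.05 and 1.42, and 0.94 and 1.25.

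The fatty acid synthase subunits, made in similar amounts, changed places between strains. In the HEL2-FTP cytosol FAS1 rose from 2238 and 2233 RPM to 5798 and 5909 RPM (log2 1.39, SE 0.05, adjusted p 4.01e-11) and FAS2 from 2138 and 2085 RPM to 3578 and 3685 RPM (log2 0.78, SE 0.05, adjusted p 8.53e-09). At the membrane the ratios were 1.21 for FAS1 and 0.54 for FAS2. FAS1 thus exceeded FAS2 in both fractions.

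In the other strains FAS2 exceeded FAS1. In the SRP72p cytosol FAS1 rose from 1577 and 1512 CPM to 2346 and 2334 CPM (log2 0.65, SE 0.11, adjusted p 7.46e-05) and FAS2 from 1474 and 1393 CPM to 4384 and 4502 CPM (log2 1.69, SE 0.11, adjusted p 6.39e-09). In the GIT1p cytosol FAS2 rose from 2091 and 2141 CPM to 7339 and 6920 CPM (log2 2.11, SE 0.11, adjusted p 3.92e-10), while FAS1 held 2474 and 2421 CPM in the inputs and 2692 and 2602 CPM in the IPs. With TMM scaling the FAS1 ratio was 0.47 (SE 0.11, adjusted p 0.00107), and with library size alone it was 0.11 (adjusted p 0.378). At the GIT1p membrane the same ratio was 0.54 (adjusted p 0.000541), and with library size alone 0.10 (adjusted p 0.459). TMM factors were 1.09 to 1.20 in the GIT1p inputs and 0.795 to 0.965 in the IPs. HEL2-FTP and the other strains were processed into different units, so the turn in the order of the subunits was not tested.

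**Figure D2:**
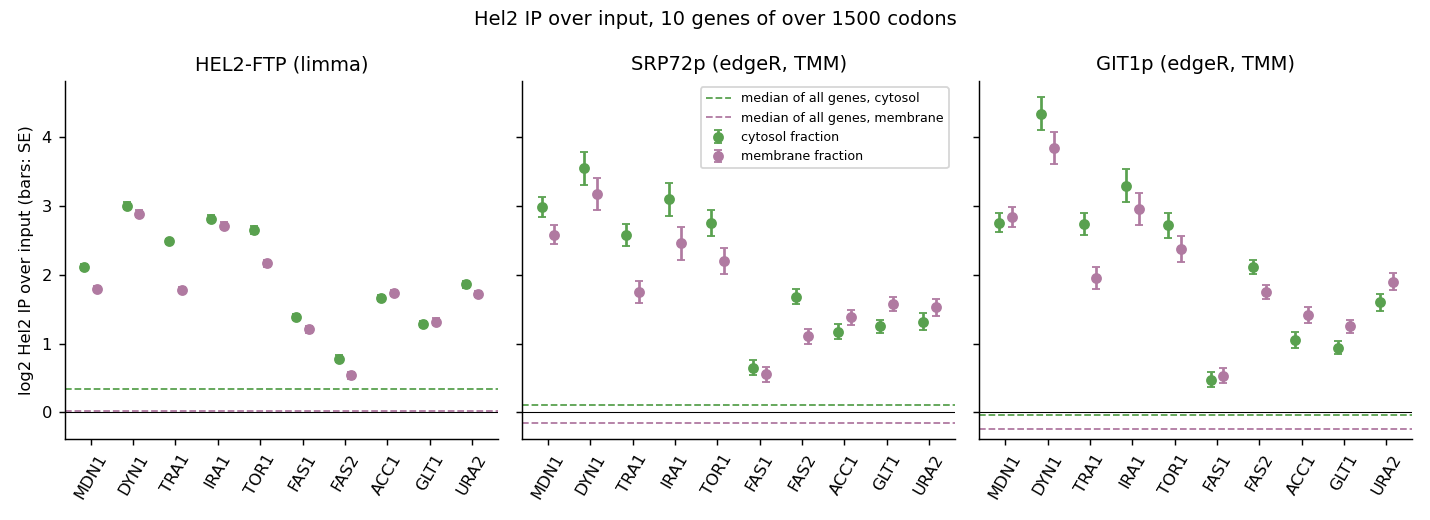
Log2 Hel2 IP over input for each gene, by strain and fraction, with bars for the SE of the fit over 2 replicates per group and dashed lines for the median of all genes tested. Every point lies above 0 and above its dashed line. DYN1 stands highest in each panel, at 3.01 and 2.89 in HEL2-FTP, and the lowest points are FAS2 in HEL2-FTP and FAS1 in the other strains.

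Related copies exist for TOR1 (TOR2), IRA1 (IRA2) and ACC1 (HFA1, the mitochondrial carboxylase), and how reads shared by copies were counted is not given in the sources used here. All 3 paralogs were higher in the IP in all 6 comparisons. In the HEL2-FTP cytosol IRA2 rose from 70.3 and 67.3 RPM to 1043 and 1003 RPM (log2 3.88, SE 0.05, adjusted p 1.52e-13), TOR2 had a ratio of 2.61 and HFA1 one of 2.84. IRA2, of 3079 codons, was therefore above IRA1, and TOR2 was close to TOR1 at 2.65. Reads shared between copies would move both values of a pair.

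The IP/input ratio rose with coding length across the genome, and the 10 genes were near other long genes. In the HEL2-FTP cytosol the median log2 ratio was −0.80 for genes of up to 250 codons, 0.06 for 251 to 500, 1.13 for 501 to 1000, 1.84 for 1001 to 1500 and 2.58 for the 157 other genes of more than 1500 codons, against 1.99 for the 10. The membrane medians of HEL2-FTP were −0.78, −0.23, 0.69, 1.60 and 2.31 in the same order, and 1.76 for the 10. Of the 157 genes, 100% were higher in the IP in both HEL2-FTP fractions, and in the other strains the share was 98.7% (SRP72p cytosol), 80.3% (SRP72p membrane), 99.4% (GIT1p cytosol) and 97.5% (GIT1p membrane). The 114 of them with a symbol in the RefSeq table had medians of 2.35 and 1.98 in HEL2-FTP, and 96.5% to 99.1% of them were higher in the other strains. Being higher in the IP was thus no property of the 10 among genes of this length. Among the other long genes the highest ratios in the HEL2-FTP cytosol were those of FLO1 (6.06) and HKR1 (4.81), which encode cell-surface glycoproteins, and IRA2 (3.88). The lowest were those of CHC1 (0.89), the clathrin heavy chain, ESC1 (1.10) and MLP1 (1.17).

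Within the 10, the ratio went with length and against input level. Spearman's rho between the log2 ratio and coding length was 0.82 in the HEL2-FTP cytosol and 0.87 at the membrane over the 10 genes, and 0.65 and 0.60 over all genes. Between the ratio and the input level per kb it was −0.92 and −0.96 over the 10, and −0.63 and −0.55 over all genes. These are descriptions across genes of the same libraries, and the second pair shares the input values, which stand in both quantities. Length and input level ran together in the 10, so their parts cannot be told apart here.

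**Figure D3:**
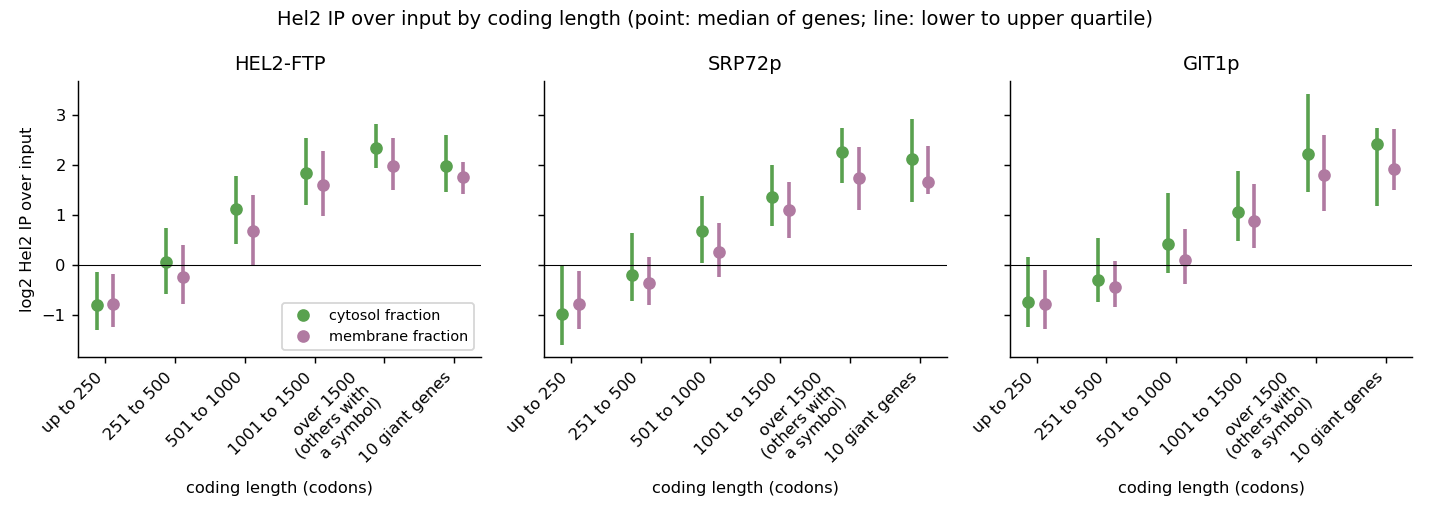
Log2 Hel2 IP over input by coding length in codons, with points for the median over genes and lines from the lower to the upper quartile, in each strain and fraction. The longest bin holds the 114 other genes that have a symbol. Medians climb from −0.80 to 2.35 in the HEL2-FTP cytosol, and the 10 giant genes, at 1.99, lie within the range of the other genes of more than 1500 codons that have a symbol.

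The second comparison followed the footprints along the coding sequence, which the HEL2-FTP files give codon by codon. Hel2-bound footprints of most of the 10 genes lay nearer the start than input footprints did. Each coding sequence was cut into 3 equal parts, and the balance, log2 of the RPM in the last part over that in the first, was lower in the cytosolic IP than in the input for 8 of the 10 genes, and 49.1% of the 5130 genes tested were lower (54.6% called). At the membrane 9 of the 10 were lower, against 51.2% of genes lower (54.7% called). The median change of the 10 genes was −0.82 in the cytosol and −0.80 at the membrane, against −0.44 and −0.49 over all genes. The 342 genes of 1001 to 1500 codons had −1.27 and −1.21, and the 155 other genes of more than 1500 codons had −1.01 and −0.91, with 78.1% and 71.6% of them lower. Among the latter, the 112 with a symbol in the RefSeq table had −1.29 and −1.08, with 92.9% and 94.6% lower.

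MDN1 shifted the most in both fractions. Its last part held 32.2% ± 0.52 of its footprints (SD, n = 2) in the cytosolic input and 12.8% ± 0.67 (SD, n = 2) in the IP, and its balance fell by 1.92 on the log2 scale (SE 0.10, limma adjusted p 4.31e-05). At the membrane the shares were 32.8% ± 0.61 (SD, n = 2) and 10.4% ± 0.03 (SD, n = 2), a fall by 2.32 (adjusted p 5.8e-05). Over 10 equal segments of the coding sequence, its IP/input ratio went from 6.95 in the first to 1.26 in the last in the cytosol, and from 5.84 to 0.716 at the membrane. The membrane fraction of MDN1 was the one case among the 10 genes in which not all segments had both IPs above both inputs: 9 of its 10 did. In bins of 50 codons, both IPs exceeded both inputs in 92 of 98 bins in the cytosol and in 78 of 98 at the membrane.

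TOR1 was steepest over its first codons. Its ratio was 14.6 in the first segment and 2.38 in the last in the cytosol, while the membrane fraction had 13.6 and 1.17. The first bin of 50 codons alone had ratios of 26.2 and 16.7. The inputs held means of only 3.95 and 4.04 RPM over the whole first segment. The ratios of this bin therefore rest on little input signal. The balance fell by 0.94 in the cytosol (SE 0.12, adjusted p 0.000395) and by 2.07 at the membrane (SE 0.12, adjusted p 5.8e-05). First-part shares in the membrane fraction were 37.4% ± 0.62 (SD, n = 2) in the input and 61.1% ± 0.07 (SD, n = 2) in the IP.

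TRA1 and IRA1 declined more evenly. The ratio of TRA1 went from 8.05 in the first segment to 3.32 in the last in the cytosol and from 6.38 to 1.65 at the membrane, and its balance fell by 0.85 and 1.35. The ratio of IRA1 went from 10.1 to 3.26 and from 10.0 to 2.73, and its balance fell by 1.02 and 1.20. Both genes kept both IPs above both inputs in every bin of 50 codons, 75 bins for TRA1 and 62 for IRA1, in both fractions.

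DYN1 had its highest ratio in mid-sequence. The ratio was 9.12 in the first segment, 10.9 in the fifth and 5.72 in the last in the cytosol, while the membrane fraction had 8.98, 11.3 and 4.66. Between cytosolic libraries it ran from 7.58 to 11.3 in the first and from 10.4 to 11.5 in the fifth, so these overlap. The fifth had a mean of only 1.67 RPM in the cytosolic inputs. Cytosolic IP footprints themselves were more numerous in the second segment (38.3 RPM) than in the fifth (18.2 RPM). All 82 bins had both IPs above both inputs in both fractions. The balance changed by −0.36 in the cytosol (SE 0.14, adjusted p 0.0611), which missed the threshold, and fell by 0.72 at the membrane (SE 0.14, adjusted p 0.0037). The cytosolic value passed without cytosolic input replicate 2 (−0.55, adjusted p 0.0101), with a minimum of 3 RPM in each part (adjusted p 0.0489) and with a pseudocount of 0.5 (adjusted p 0.0316).

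Among the enzymes, ACC1 had a ratio of 5.61 in the first segment and 2.36 in the ninth in the cytosol, with the last lower still, and of 5.16 in the first and 1.97 in the last at the membrane (balance −1.01 and −0.89). FAS1 went from 4.10 to 1.66 and from 3.54 to 1.62 (balance −0.78 and −0.55). GLT1 went from 3.06 to 1.85 and from 2.85 to 2.06 (balance −0.62 and −0.46), and its membrane call was lost without membrane IP replicate 1 (−0.45, adjusted p 0.0576).

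FAS2 had its excess mostly near the start. The ratio was 3.09 in the first segment, 1.27 in the ninth and 1.67 in the last in the cytosol, and 2.73 in the first and 1.08 in the fifth at the membrane, and the balance changed by −0.57 and −0.51. Both IPs exceeded both inputs in 35 of 38 bins in the cytosol and 29 of 38 at the membrane, against 41 of 41 for FAS1 in both.

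URA2 was the gene without a shift past the threshold in either fraction. Its ratio was 4.32 in the first segment, 3.08 in the fifth and 3.20 in the last in the cytosol, and at the membrane its highest value, 3.90, lay in the eighth segment. Its last part held 38.4% ± 0.23 of cytosolic input and 37.8% ± 0.21 of IP footprints (SD, n = 2 each). The changes in balance were −0.19 (SE 0.10, adjusted p 0.167) and 0.08 (SE 0.10, adjusted p 0.535), and all 44 bins had both IPs above both inputs.

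**Figure D4:**
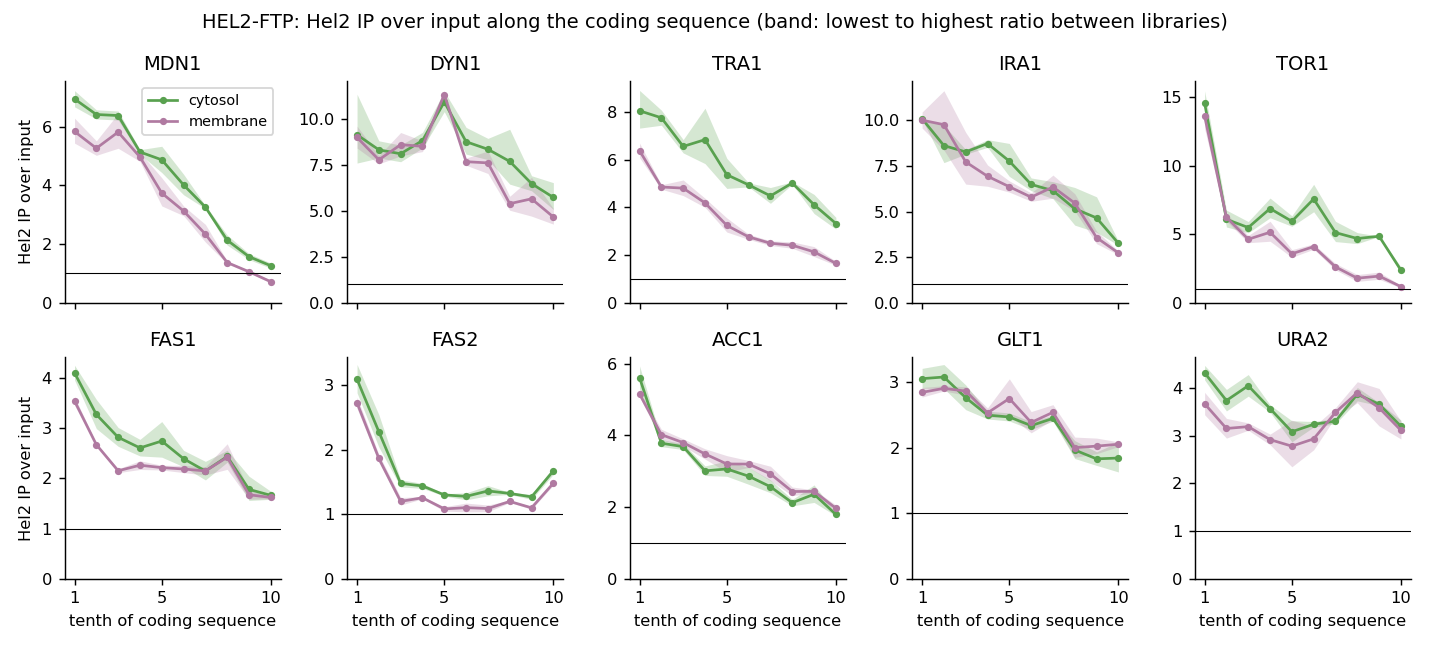
Hel2 IP over input in HEL2-FTP in 10 equal segments of the coding sequence for each gene, with lines for the ratio of means of 2 replicates, bands for the lowest to highest ratio between libraries, and a black line at 1. The ratio of MDN1 falls from 6.95 to 1.26 in the cytosol, and URA2 stays between 2.78 and 4.32. DYN1 is highest in the fifth segment at 10.9 and 11.3, where its cytosolic band overlaps that of the first.

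**Figure D5:**
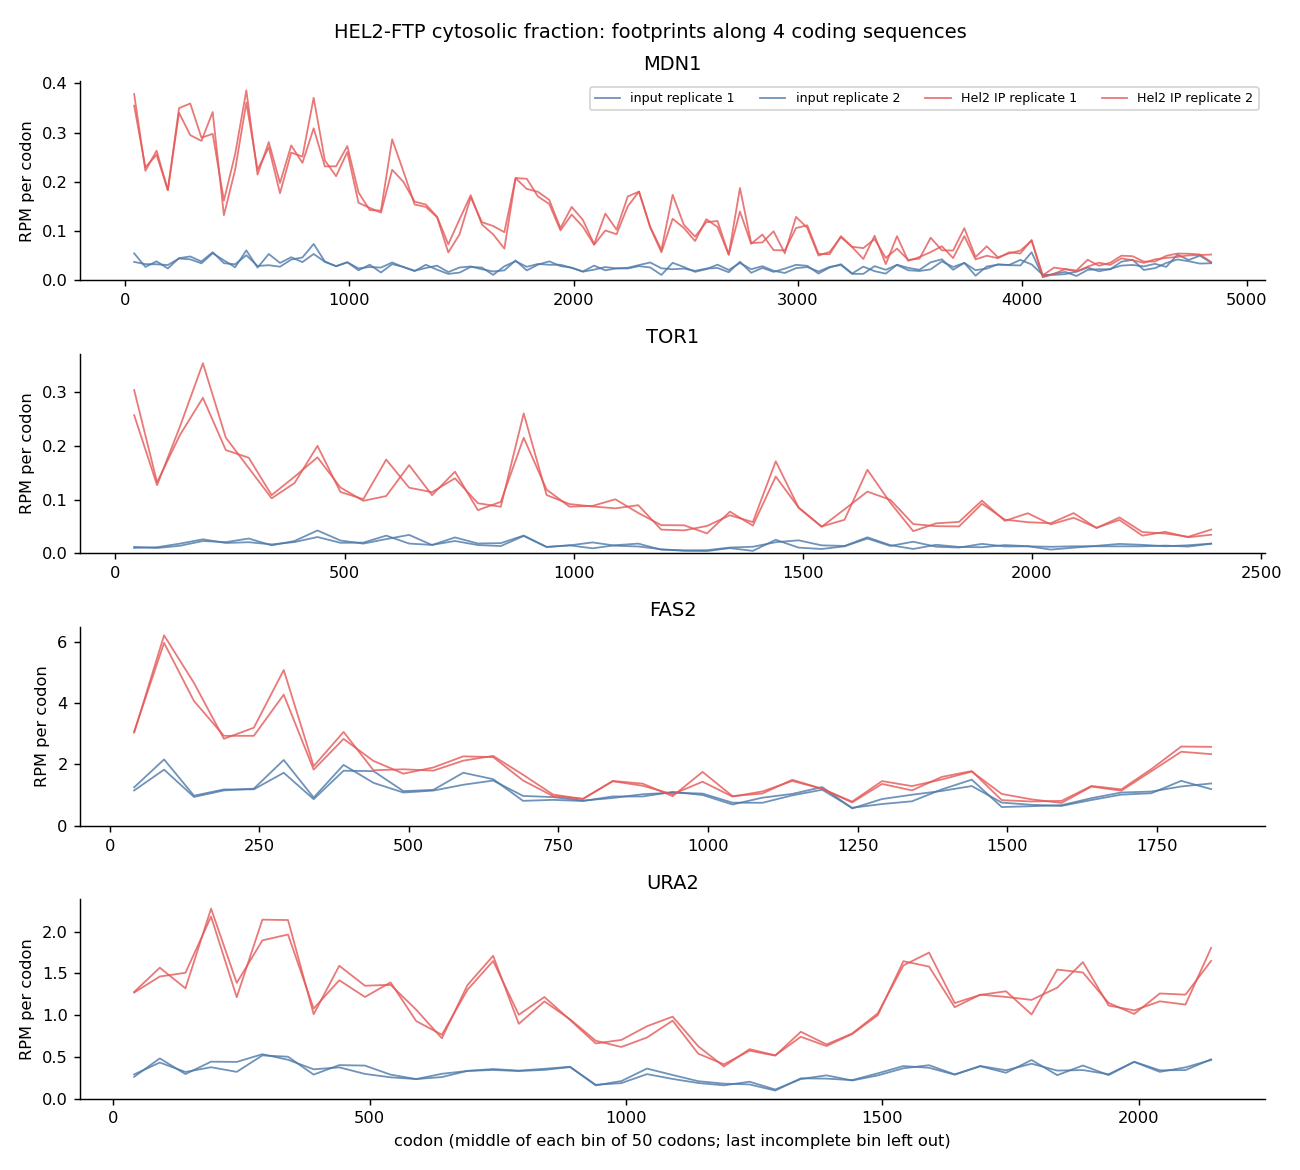
Footprints in RPM per codon along MDN1, TOR1, FAS2 and URA2 in the HEL2-FTP cytosolic libraries, averaged in bins of 50 codons, with a line per library. IP lines of MDN1, TOR1 and FAS2 stand furthest above the inputs in the early part. In URA2 both inputs and IPs dip past the middle and rise again towards the end, and the IP lines stay above the inputs throughout.

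The paralogs shifted in the same sense, with TOR2 at −1.21 and −1.77, HFA1 at −1.92 and −1.33 and IRA2 at −0.83 and −1.06 in cytosol and membrane. No difference in this shift between fractions was called for the 10 genes, and limma called 0.0585% of all genes, with 3 of the 10 at an unadjusted p below 0.05. That of TOR1 was −1.13 (SE 0.16, adjusted p 0.0541), and it passed without cytosolic input replicate 1 (−1.01, adjusted p 0.0318), with 2 equal parts in place of 3 (adjusted p 0.0342), with a minimum of 3 RPM in each part (adjusted p 0.0297) and with a pseudocount of 0.5 (adjusted p 0.0173). In the inputs alone, membrane and cytosol did not differ in balance past the threshold for any of the 10, where limma called 16.1% of genes and 1 of the 10 had an unadjusted p below 0.05, except TOR1 without cytosolic input replicate 2 (0.47, adjusted p 0.039).

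Single codons with the highest IP signal were read as a description. In TRA1, codon 613 was the highest in all 4 IP libraries, at 1.38 and 1.20 RPM in the cytosol and 1.14 and 1.18 RPM at the membrane, 6.76 to 8.36 times the gene's own mean per codon. The inputs had 0.162 and 0.102 RPM and 0.205 and 0.178 RPM there, which is 3.25 to 5.03 times their mean. In FAS1, codon 72 was the highest in all 4, at 14.3 and 15.1 RPM and 14.2 and 18.1 RPM, 5.03 to 6.72 times the mean, against 2.39 to 3.22 times in the inputs. The inputs were thus above their own mean at these codons. Whether the codons stand out from others in the inputs was not tested. Since codons were chosen by their signal in IP replicate 1, the choice favours higher multiples in the IPs, and no conclusion is drawn from the difference. In ACC1 the multiples went the other way. At codon 393 in the cytosol the inputs had 7.76 and 6.08 times their mean and the IPs 6.66 and 5.77 times. At codon 391 at the membrane they had 5.79 and 6.00 against 5.66 and 5.29 times.

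In TOR1 the highest codon of replicate 1 was 26 in the cytosol and 27 at the membrane, at 11.0 and 12.8 times the mean. Replicate 2 had 8.35 and 9.35 times its mean there. The inputs had 0.826 to 2.56 times their mean at these codons, but at only 0.0129 to 0.0447 RPM, so their multiples rest on very little signal. In MDN1 the highest codon of replicate 1 was 542 and 546, in DYN1 634 in both fractions, and in IRA1 859 and 984. In FAS2 it was 114 and 115, in ACC1 393 and 391, in GLT1 69 and 279, and in URA2 171 in both. Several differed between replicates: the highest codon of replicate 2 was 55 in the MDN1 cytosolic IP and 321 in both DYN1 IPs. Each read is spread over the codons it covers, so neighbouring codons are not separate peaks.

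The third comparison asked whether the fractions differ. In the HEL2-FTP inputs TRA1 (log2 0.36), MDN1 (0.32), DYN1 (0.16), GLT1 (0.13) and FAS2 (0.12) were higher in the membrane fraction, 5 of 10 where 21.2% of genes were higher and 54.1% called, and the median of the 10 was 0.12 against −0.13 for all genes. The directions rest on the scaling. With libraries centred on their median gene, the median of all genes went to −0.40, DYN1 (−0.12), GLT1 (−0.15) and FAS2 (−0.16) turned, TRA1 (0.08) and MDN1 (0.04) lost their calls, and 8 of the 10 were lower. With centring 93.1% of genes were called and 74.9% were lower, against 32.9% lower without it. GLT1 and FAS2 also lost their calls without each of the 4 input libraries in turn (adjusted p 0.0537 to 0.13 and 0.0799 to 0.20), and DYN1 without membrane input replicate 2 (adjusted p 0.112), while TOR1 gained one without cytosolic input replicate 1 (adjusted p 0.0367).

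By edgeR, none of the 10 was called between input fractions in SRP72p (20.8% of genes called) or GIT1p (16.7%). At an unadjusted p below 0.05 there were 0 and 1 of the 10, and DESeq2 called 0 in both. The SRP72p membrane inputs stand apart from each other: IRA1 gave 97.4 and 48.0 CPM and MDN1 261 and 195 CPM. Without membrane input replicate 2, IRA1 (0.73, adjusted p 0.00216), DYN1 (0.67, adjusted p 0.00538), TRA1 (0.56, adjusted p 0.00447) and MDN1 (0.41, adjusted p 0.0106) were higher in the membrane fraction, where with all libraries 15.9% of genes were higher.

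The IP/input ratio of TRA1 was lower at the membrane than in the cytosol in each strain. The difference, tested as an interaction, was −0.70 in HEL2-FTP (SE 0.06, adjusted p 3.12e-06), −0.83 in SRP72p (SE 0.22, adjusted p 0.0124) and −0.79 in GIT1p (SE 0.22, adjusted p 0.0175). In HEL2-FTP, TOR1 (−0.49, adjusted p 0.000348), MDN1 (−0.31, adjusted p 0.00198) and FAS2 (−0.24, adjusted p 0.0169) were lower as well, where 25.9% of genes were lower and 29.2% called. In SRP72p the other call was FAS2 (−0.58, adjusted p 0.00962), where 14.5% of genes were lower and 22.9% called, and in GIT1p 15.8% of genes were lower and 18.6% called. All 12 secretory markers were lower in this contrast in each strain, with medians of −1.15, −1.90 and −2.66, and their part in the values of the 10 genes was not tested. With centring, FAS2 (−0.09) and MDN1 (−0.16) lost their calls in HEL2-FTP, TRA1 and TOR1 kept theirs, and ACC1 (0.24, adjusted p 0.0142) and GLT1 (0.19, adjusted p 0.029) were called higher at the membrane.

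Some of these calls rest on single libraries. That of TRA1 in SRP72p was lost without cytosolic input replicate 2 (−0.59, adjusted p 0.122) or cytosolic IP replicate 1 (−0.76, adjusted p 0.0512). In GIT1p the TRA1 call was lost without either cytosolic input, cytosolic IP replicate 2, membrane input replicate 2 or membrane IP replicate 2 (−0.81 to −0.61, adjusted p 0.0527 to 0.0992) and with DESeq2's size factors (−0.59, adjusted p 0.068). Those size factors, and DESeq2 itself, called ACC1 (0.56), GLT1 (0.50) and URA2 (0.49) higher at the membrane in GIT1p, and GLT1 (0.43) in SRP72p. The FAS2 call was lost in SRP72p without either cytosolic input (−0.46 and −0.39, adjusted p 0.0642 and 0.125), and in HEL2-FTP without cytosolic IP replicate 2, membrane input replicate 2 or either membrane IP (adjusted p 0.0502 to 0.0717). Without SRP72p membrane input replicate 2, IRA1 (−1.06), DYN1 (−0.76), TOR1 (−0.75) and MDN1 (−0.61) were called lower too, adjusted p 0.000663 to 0.0368. The TRA1 and TOR1 calls in HEL2-FTP held without each library in turn.

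The fourth comparison set libraries labelled GIT1p against those labelled SRP72p. By edgeR, FAS1 (log2 0.47, adjusted p 0.00423), FAS2 (0.37, adjusted p 0.0159) and GLT1 (0.31, adjusted p 0.0304) were higher in cytosolic inputs labelled GIT1p (13.4% of genes higher, 25.8% called). At the membrane FAS1 (0.51, adjusted p 0.00354) and FAS2 (0.50, adjusted p 0.00368) were higher (12.0% higher, 18.3% called). DESeq2 called DYN1 (−0.55, adjusted p 0.043) and MDN1 (−0.39, adjusted p 0.018) lower in the cytosolic inputs labelled GIT1p. GLT1 lost its call there with DESeq2 (0.17, adjusted p 0.0889) and with its size factors in edgeR (0.17, adjusted p 0.192). Those size factors also lost FAS2 (0.23, adjusted p 0.0947) and called MDN1 lower (−0.39, adjusted p 0.047). Library size alone called ACC1 (0.33) and URA2 (0.44) higher. In the cytosol, FAS2 and GLT1 lost their calls without each of the 4 libraries in turn (adjusted p 0.0828 to 0.168 and 0.105 to 0.221) and FAS1 without SRP72p input replicate 2 (adjusted p 0.065). At the membrane both lost them without GIT1p input replicate 1 (adjusted p 0.0576 and 0.0516). Without SRP72p membrane input replicate 2, DYN1 (−0.74), IRA1 (−0.55) and MDN1 (−0.39) were lower in GIT1p, where with all libraries 6.3% of genes were lower.

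No difference in the cytosolic IP/input ratio between these labels was called for the 10 genes, where edgeR called 11.1% of genes. At an unadjusted p below 0.05 there were 3 of the 10, and DESeq2 called DYN1 (0.82, adjusted p 0.0468) and FAS2 (0.45, adjusted p 8.61e-05) higher in GIT1p. By edgeR with library size alone GLT1 was lower (−0.62, adjusted p 0.0132), where 747 of the 963 genes called were lower. Without the filter on low counts it was called lower too (−0.52, adjusted p 0.0289). At the membrane library size alone also called GLT1 lower (−0.62, adjusted p 0.0177), where 636 of 684 were lower. DESeq2 called URA2 higher there (0.48, adjusted p 0.0494). At the membrane the ratio of FAS2 was higher in the libraries labelled GIT1p by a log2 of 0.64 (SE 0.15, adjusted p 0.0309), where 1.07% of genes were higher and 2.45% called. That call was lost with library size alone (0.36, adjusted p 0.166) and in 6 of the 8 fits that left out a library (adjusted p 0.0702 to 0.163), which are those without each library other than the SRP72p membrane inputs. Without SRP72p membrane input replicate 2, DYN1 (1.05, adjusted p 0.00274) and IRA1 (0.91, adjusted p 0.00789) passed as well.

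Partners of the 10 genes in their pathways were counted from lists that include the giant members. In the HEL2-FTP cytosol all 9 genes of the TOR complexes were higher in the IP (median 2.19), as were 9 of 11 kinases of the TOR family and their assembly factors (median 2.08), with 2 lower. TOR2 had 2.61, TSC11, a subunit of TOR complex 2, had 2.44, and TEL1, a checkpoint kinase of the same family, rose from 9.57 and 9.44 RPM to 81.6 and 82.8 RPM (log2 3.05, SE 0.07, adjusted p 1.99e-12). Of 15 SAGA and NuA4 genes, the partners of TRA1, 12 were higher and 3 lower (median 0.69), with EAF1 at 2.52 and EPL1 at 2.07, both NuA4 subunits. Of all genes, 53.7% were higher and 35.7% lower in this comparison.

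Of 13 dynein and dynactin genes, 8 were higher and 4 lower (median 1.25), with the dynactin subunit NIP100 at 2.55 and the dynein intermediate chain PAC11 at 2.17. Of 13 genes of RAS and cyclic AMP signalling, 9 were higher and 2 lower (median 0.61), with IRA2 at 3.88 and CYR1, adenylate cyclase, at 2.82. Of 13 genes of fatty acid synthesis, 6 were higher and 4 lower (median 0.12), with the biotin ligase BPL1 at 1.45 and the desaturase OLE1 at 0.98.

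The other lists leaned to the input in the HEL2-FTP cytosol. Of 12 genes for maturation of the large subunit, 3 were higher and 7 lower (median −0.23), with IPI1 at −0.63 and ERB1 at −0.62 among the lower, so MDN1, at 2.12, stood on the other side from most of its list. Of 8 genes of pyrimidine synthesis 2 were higher and 5 lower (median −0.45), with URA10 at −1.61 and URA1 at −0.80. Of 5 genes of glutamate synthesis 2 were higher and 3 lower (median −0.88), with GLN1, glutamine synthetase, falling from 1514 and 1402 RPM to 496 and 476 RPM (log2 −1.58, SE 0.05, adjusted p 2.22e-11) and GDH1 at −1.10. Over all genes the median was 0.34.

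In the other 5 comparisons 25.2% to 45.4% of all genes were higher, and 43% (HEL2-FTP membrane), 31% (SRP72p cytosol), 33% (SRP72p membrane), 33.2% (GIT1p cytosol) and 37.2% (GIT1p membrane) were lower. In these comparisons 5 to 8 of the 9 TOR complex genes were higher and 0 or 1 lower, and 1 to 3 of the 12 large-subunit maturation genes were higher and 4 to 9 lower. Of the 13 genes of fatty acid synthesis, 8 were higher and 1 lower in the SRP72p cytosol, and 9 and 1 in the GIT1p cytosol. At the membrane 4 were higher and 8 lower in HEL2-FTP, and 5 and 6 in each of the other strains. Pyrimidine synthesis had 2 of 8 higher and 5 or 6 lower in all 5. The 13 RAS and cyclic AMP genes had 9 higher and 3 lower at the HEL2-FTP membrane. In SRP72p they had 5 and 4 (cytosol) and 6 and 2 (membrane), and in GIT1p 5 and 6 in each fraction. The 15 SAGA and NuA4 genes had 5 to 10 higher and 0 to 3 lower. Their median in the GIT1p cytosol was −0.11. Glutamate synthesis had 2 of 5 higher and 3 lower at the HEL2-FTP membrane. In SRP72p it had 2 and 2 (cytosol) and 1 and 1 (membrane), and in GIT1p 1 and 1, and 2 and 0.

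Over the 16 count libraries, each of the 10 genes was set beside all 5714 genes tested by Pearson's r of log2 CPM, as a description of libraries that share depth and group structure. The most alike gene was MDS3 for MDN1 (0.992), IRA1 for DYN1 (0.995), TAO3 for TRA1 (0.992), BNI1 for IRA1 (0.997) and STT4 for TOR1 (0.992). For the enzymes it was RPO21 for ACC1 (0.988), INO80 for GLT1 (0.989), PYC2 for URA2 (0.988), PCA1 for FAS2 (0.967) and GDE1 for FAS1 (0.971). Among the 10 themselves, FAS1 was the least like the rest, with r of 0.498 to 0.775, while MDN1, DYN1, TRA1, IRA1 and TOR1 had r of 0.971 to 0.995 with each other.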

How the data were processed

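Footprints of 24 libraries were analysed. For HEL2-FTP the authors deposited RPM at each codon, with reads spread over the codons they cover, and a ratio per codon, which was not used in any test. For SRP72p and GIT1p the authors deposited read counts per gene, and beside them RPKM, which were not tested. The submitters' processing notes name CASAVA 1.8, UMI-tools, Bowtie2, TopHat and sacCer3, with no role or order, and whether deposited values were deduplicated is not given in the sources used here.

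RPM were summed over each coding sequence, and log2(RPM + 0.5) was tested with limma 3.58.1 (intensity trend, 8 libraries, 5531 genes averaging 1 RPM or more). Fold changes on that scale understate those of low genes. Only 74.1% to 80.8% of low sums came out as whole reads in the HEL2-FTP libraries, so no count test was run on RPM. Counts were tested with edgeR 4.0.16 in R 4.3.3 (quasi-likelihood, TMM, 16 libraries, 5714 genes). Balances used the first and last of 3 equal parts of the coding sequence without its first 15 and last 5 codons, a pseudocount of 0.05 RPM and at least 1 RPM in each part (5130 genes). No replicate term entered, and no paired samples are stated in the labels. Calls are Benjamini-Hochberg adjusted p below 0.05 over all genes tested. Scripts were tested on simulated data. CPM are counts scaled to the library total.

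Groups came from the titles. Alternatives covered scaling, filters, pseudocounts, DESeq2 1.42.0, a replicate block and each library left out. Named were the 10 genes, their paralogs, up to 2 called genes with the largest change per list and comparison, the gene with the highest r per member, the highest codon of IP replicate 1, and the 3 highest and lowest other long genes. Members and lists were chosen with earlier results of these data known. Symbols came from a RefSeq table of assembly R64, which matched 5988 of 6663 transcripts and 6008 of 6696 genes.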

Additional observations from a re-analysis of the deposited data

Results flagged for a closer look

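In 8 cases a tested difference between 2 IP/input ratios passed for a giant gene. The ratio of TRA1 was lower in the membrane fraction than in the cytosol by a log2 of −0.70 in HEL2-FTP, −0.83 in SRP72p and −0.79 in GIT1p. In HEL2-FTP the same difference was −0.49 for TOR1, −0.31 for MDN1 and −0.24 for FAS2, and in SRP72p it was −0.58 for FAS2. The membrane ratio of FAS2 was higher in libraries labelled GIT1p than in those labelled SRP72p by 0.64. Beside these, the 12 secretory markers were lower in the fraction contrast in each strain, and their part was not tested. Only the TRA1 and TOR1 differences in HEL2-FTP held without each library in turn and with centring.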

How the results depend on the processing

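Over the settings tried, 335 counts stayed within 1.5 times their main value and 75 moved, and of all single values of the 10 genes 1840 kept direction and side of the threshold, 52 lost a call, 50 gained one and 108 turned, of which 101 were called in neither fit, 4 only in the alternative and 3 in both. All 10 genes remained called higher in the IP in every comparison without each library in turn, and FAS1 in GIT1p lost its calls with library size alone (0.11 and 0.10). Centring turned the called HEL2-FTP input differences of DYN1 (−0.115), FAS2 (−0.157) and GLT1 (−0.149). Those of ACC1 (−0.247), FAS1 (−0.188), IRA1 (−0.252) and TOR1 (−0.166), uncalled in the main fit, turned as well and were called lower. Fraction differences of IP/input of DYN1 (0.043), IRA1 (0.058) and URA2 (0.022) also turned, uncalled. Centring gave 8 genes of the 10, and 5151 genes in all, called between HEL2-FTP input fractions.

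In SRP72p inputs between fractions DESeq2 called 1962 genes and its size factors 2072. For the fraction difference in GIT1p they called 4 and 3 of the 10 (main 1), the added ones, ACC1, GLT1 and URA2, being higher at the membrane where TRA1 was lower. Between labels, library size alone gave 5 of the 10 in cytosolic inputs, 1 of the 10 and 963 genes for cytosolic IP/input, and 684 genes for membrane IP/input. DESeq2 gave 2 of the 10 for cytosolic IP/input, and 2 of the 10 and 257 genes for membrane IP/input, and no filter gave 1 of the 10 for cytosolic IP/input. For the fraction difference in balance, 3 genes were called, against 47 with 2 equal parts in place of 3, 50 with at least 3 RPM and 90 with a pseudocount of 0.5 (1 of the 10 each), and 1 with the ends trimmed by 100 and 20 codons. Trimming gave 521 genes for input balance between fractions. The cause of these moves was not tested.

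Leaving out a library in turn gave ranges of calls among the 10 of 2 to 4 (HEL2-FTP inputs between fractions), 0 to 4 (SRP72p inputs, with 1042 to 2404 genes), 0 to 6 (SRP72p fraction difference), 0 to 1 (GIT1p fraction difference), 0 to 1 (cytosolic inputs between labels, with 851 to 1281 genes), 0 to 5 (membrane inputs, with 530 to 1149 genes) and 0 to 3 (membrane IP/input between labels, with 32 to 384 genes). For cytosolic IP/input between labels it gave 276 to 580 genes, for the fraction difference in balance 0 to 1 of the 10 and 0 to 109 genes, and for input balance 0 to 1 of the 10. Where 1 library was left in a group, it is assumed to vary like the others.

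A fit with a replicate block called 1 gene for the fraction difference in balance and added FAS1 to the HEL2-FTP fraction differences (−0.18, adjusted p 0.00854) and to the HEL2-FTP input differences (0.09, adjusted p 0.0345). It ended no call of the 10 genes. The labels do not say that numbers pair samples. The difference between replicates 1 and 2 was therefore compared between groups across genes. In HEL2-FTP this difference in the IP correlated with that in the input at r = 0.42 (cytosol) and 0.28 (membrane). Between the membrane inputs of GIT1p and SRP72p it correlated at −0.43. Crossing the replicate numbers between these membrane inputs, chosen after seeing the data, gave 1045 genes and 2 of the 10 called. With 2 replicates a group and 2015928 counts in the smallest library, small differences may be missed.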
